A study of Mus musculus with 8 samples.

Results

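The interferon-stimulated genes described here are 44 mouse genes that interferons are known to switch on, read in CD8+ T cells from mouse spleen. They were chosen by name: 7 GTPases of the guanylate-binding (Gbp) and immunity-related (Irg) families, 19 antiviral effectors, 4 sensors of RNA and DNA, 5 signalling genes and 9 others. Every probe set annotated to a single member was taken, and the Ifi200 family was left out. This gave 72 of the 45101 probe sets on the array, for 42 of the 44 genes. Isg15, whose probe set is annotated to more than 1 gene, and Ifi44 were not analysed here. Each gene is represented by its brightest probe set unless stated otherwise. Mx2 was too dim to be tested, with intensities of 4.46 to 72.2, so 41 genes were tested.

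There were 4 groups of 2 arrays each, 8 arrays in all. Wild-type cells came from C57BL/6 mice and knockout cells from Elf4-/- mice, which lack the ETS-family transcription factor Elf4 and whose strain background the labels do not give. Naive cells were left untreated. Activated cells spent 3.5 days on plates coated with anti-CD3, with anti-CD28 in RPMI medium with FBS and T-stim. The labels give neither the age of the mice nor the number of mice behind a sample. They do not call the replicates separate mice or cultures. Every p-value here rests on the spread within pairs of arrays, pooled over the 4 groups and drawn toward that of other probe sets. It is not the spread of the compared pairs alone, and it may be technical only.

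Interferons act through receptors that activate Jak kinases and Stat proteins. Type I interferons act on genes through the interferon-stimulated response element (ISRE), bound by a complex that includes Stat2 and Irf9, and interferon gamma acts through the gamma-activated site (GAS). The products block viral entry, translation and genome copying, or, in the case of the Gbp and Irg GTPases, attack the vacuoles in which intracellular microbes live. Interferon gamma is a major inducer of the GTPases, and activated CD8+ T cells are known to make it in large amounts.

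Promoter sequence is shown for the GTPases, the role group with the largest median genotype differences, and for Ifit1 and Ifit3, which are among the members with the largest falls on activation. RefSeq windows of 250 bases before to 50 bases after the gene's start, on GRCm38.p6, were held for 32 of the 44 members. The letters searched on both strands were GAAANNGAAA for the ISRE (TTTCNNTTTC when read on the other strand) and TTCNNNGAA, which reads the same on both strands, for the GAS. The ISRE letters occurred in 18 of the 32 members (56.2%), against 3.99% of all 27025 genes with a window, and the GAS letters in 12 (37.5%) against 9.55%. All 6 GTPases with a window had ISRE letters and 3 of them had GAS letters. Each stretch below is 100 bases read 5′ to 3′ on the gene's own strand, with ISRE and GAS matches in capitals. They run from base -110 to base -11 before the start, except that of Ifit3, which runs from base -166 to base -67 to hold both of its ISRE matches. They lie at chr11:58199446-58199545 (plus strand, Igtp), chr11:58214867-58214966 (plus, Irgm2), chr11:48871431-48871530 (minus, Irgm1), chr3:142620553-142620652 (plus, Gbp2), chr3:142559934-142560033 (plus, Gbp3), chr3:142530226-142530325 (plus, Gbp7), chr19:34640779-34640878 (plus, Ifit1) and chr19:34583363-34583462 (plus, Ifit3).
Igtp: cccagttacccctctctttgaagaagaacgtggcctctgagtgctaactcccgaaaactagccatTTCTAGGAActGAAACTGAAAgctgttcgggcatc
Irgm2: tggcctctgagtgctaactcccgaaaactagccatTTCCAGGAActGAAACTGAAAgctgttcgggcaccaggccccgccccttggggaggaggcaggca
Irgm1: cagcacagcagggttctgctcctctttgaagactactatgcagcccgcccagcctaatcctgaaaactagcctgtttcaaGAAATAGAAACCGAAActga
Gbp2: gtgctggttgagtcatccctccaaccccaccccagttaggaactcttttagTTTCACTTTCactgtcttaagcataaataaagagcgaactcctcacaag
Gbp3: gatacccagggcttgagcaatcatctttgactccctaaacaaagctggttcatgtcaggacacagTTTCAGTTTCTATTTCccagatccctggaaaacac
Gbp7: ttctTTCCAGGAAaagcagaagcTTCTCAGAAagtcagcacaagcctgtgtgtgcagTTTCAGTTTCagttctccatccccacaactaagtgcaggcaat
Ifit1: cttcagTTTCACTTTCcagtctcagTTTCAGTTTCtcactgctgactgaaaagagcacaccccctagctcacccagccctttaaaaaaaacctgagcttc
Ifit3: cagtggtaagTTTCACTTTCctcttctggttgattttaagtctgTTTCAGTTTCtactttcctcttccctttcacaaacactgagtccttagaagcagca

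Igtp and Irgm2, which are neighbours on chromosome 11, have nearly the same stretch. With the ISRE of both lined up and no gaps, 68 of 70 bases are identical, and the longest identical run is 38 bases. In both, the GAS letters begin 11 bases before the ISRE letters. Gbp3 and Irgm1 each have overlapping ISRE matches, Ifit1 and Ifit3 each have 2 separate ISRE matches and no GAS match, and Gbp7 has 2 GAS matches before its ISRE. Irf7, also among the members with the largest falls on activation, had a window with 0 ISRE and 0 GAS matches and is not shown. A match describes letters in the gene's window only.

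Naive and activated arrays differed in RNA quality and in sex as well as in state. Array medians lay between 64.1 and 86.2 intensity units. The Actb control probe sets gave a 3′ over 5′ signal ratio, which rises as RNA degrades, of 1.96 to 2.5 for naive arrays, against 5.9 to 5.98 for the activated wild type and 7.44 to 11.1 for the activated knockout. Xist was at 60.3 to 172 before and 7703 to 10010 after activation, and the Y-linked Eif2s3y at 2537 to 5146 before and 2.92 to 43.9 after, a male pattern in naive samples and a female one after activation. Activation, sex and this ratio cannot be told apart. All 8 CD8+ T cell markers measured, Cd8a, Cd8b1 and the Cd3 chains among them, were bright on every array. Elf4 itself was dim. Naive arrays gave it 116 and 199 (wild type) against 165 and 192 (knockout) with the brighter probe set, and activated arrays 83.6 and 134 against 76.2 and 80.6, so the naive genotypes overlapped. Whether its probes lie in the deleted part was not analysed here, so it does not check the labels.

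In naive cells the members lay mostly higher in the knockout, the GTPases furthest. The median of the 41 members was a log2 change (knockout over wild type, of intensity + 16) of 0.28, against 0.02 over all 12782 genes tested, and 32 members lay above 0 (78%, against 51.8% of all genes). The threshold, an adjusted p of 0.05 in limma over 27348 probe sets, was passed by 3 members, against 0.837% of all genes. Igtp and Irgm2 rose (0.477% of genes did) and Ly6e fell (0.36%). When 1 array was left out at a time, 0 to 2 members passed, with 0 for naive knockout replicate 2 and for each activated array. At an unadjusted p under 0.05, 13 members were higher, against 7.66% of all genes, and 1 was lower, against 6.33%. Knockout arrays lay above both wild-type arrays for 26 members (against 20.3% of genes) and below both for 1 (against 19.3%). Arrays hold RNA of whole samples, so fewer cells of a type and less RNA per cell cannot be told apart.

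Igtp, an immunity-related GTPase of intracellular membranes, was the brightest GTPase of the list. It read 6316 and 7822 in naive wild-type and 11272 and 13948 in naive knockout cells. Both knockout arrays lay above both wild-type arrays, with means of 7069 ± 1065 and 12610 ± 1892 (SD, n = 2), a 1.78-fold difference (log2 0.83, SE 0.14, limma adjusted p = 0.0332). Irgm2, a regulator of the same GTPase family, read 1378 and 1078 in the wild type against 2233 and 2386 in the knockout. Its groups did not overlap either, and it was 1.88-fold higher (log2 0.91, SE 0.17, adjusted p = 0.0488).

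Other GTPases leaned the same way without passing. Iigp1, which disrupts the vacuole around Toxoplasma, read 655 and 688 in naive wild-type and 1533 and 1051 in naive knockout cells (log2 0.90, SE 0.21, adjusted p = 0.107), and its second probe set gave a log2 change of 1.06 (adjusted p = 0.104). Irgm1 read 1240 and 1394 against 1724 and 1922 (log2 0.47, adjusted p = 0.331), and Gbp3 read 782 and 1008 against 1097 and 1689 (log2 0.61, adjusted p = 0.401). Gbp2 differed least among those that were higher, at 6187 and 4784 against 6498 and 6342 (log2 0.24, adjusted p = 0.615). Knockout lay above wild type without overlap in 6 of the 7 GTPases, and their median log2 change was 0.61. The exception, Gbp7, had probe sets of opposite sign, with log2 changes of −0.38 for the brighter (adjusted p = 0.689) and 0.41 for the other (adjusted p = 0.521).

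Ly6e, a lipid-anchored surface protein that hinders entry of some viruses, was the member that fell. It read 12948 and 13726 in naive wild-type and 7502 and 4792 in naive knockout cells, with no overlap and 2.17-fold higher in the wild type (log2 −1.15, SE 0.18, adjusted p = 0.0249). Its second probe set read 926 and 911 against 647 and 499 and did not pass (log2 −0.68, adjusted p = 0.229).

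Antiviral effectors gave smaller shifts. Their median log2 change was 0.24 and 12 of 17 lay above 0, but 0 passed the threshold and 4 had an unadjusted p under 0.05 (Adar, Cmpk2, Ifitm3 and Oas3). Ifitm3, a membrane protein that blocks viral fusion, read 178 and 182 in the wild type against 289 and 609 in the knockout (log2 1.16, SE 0.35, adjusted p = 0.213). Samhd1, a nucleotide-degrading enzyme and the brightest of the effectors, read 9006 and 9126 against 8901 and 9740 (log2 0.04, 95% interval −0.24 to 0.32). The RNA exonuclease gene Isg20 (−0.04) and the radical enzyme gene Rsad2 (−0.02) also lay near 0. Among the other groups the sensors had a median of 0.17 with 3 of 4 above 0, the signalling genes 0.36 with 4 of 5, and the remaining genes 0.25 with 7 of 8. Ifi27l2a, a small membrane protein strongly induced by interferon, read 3088 and 4731 in the wild type against 7715 and 7054 in the knockout (log2 0.95, SE 0.20, adjusted p = 0.0834).

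**Figure D1:**
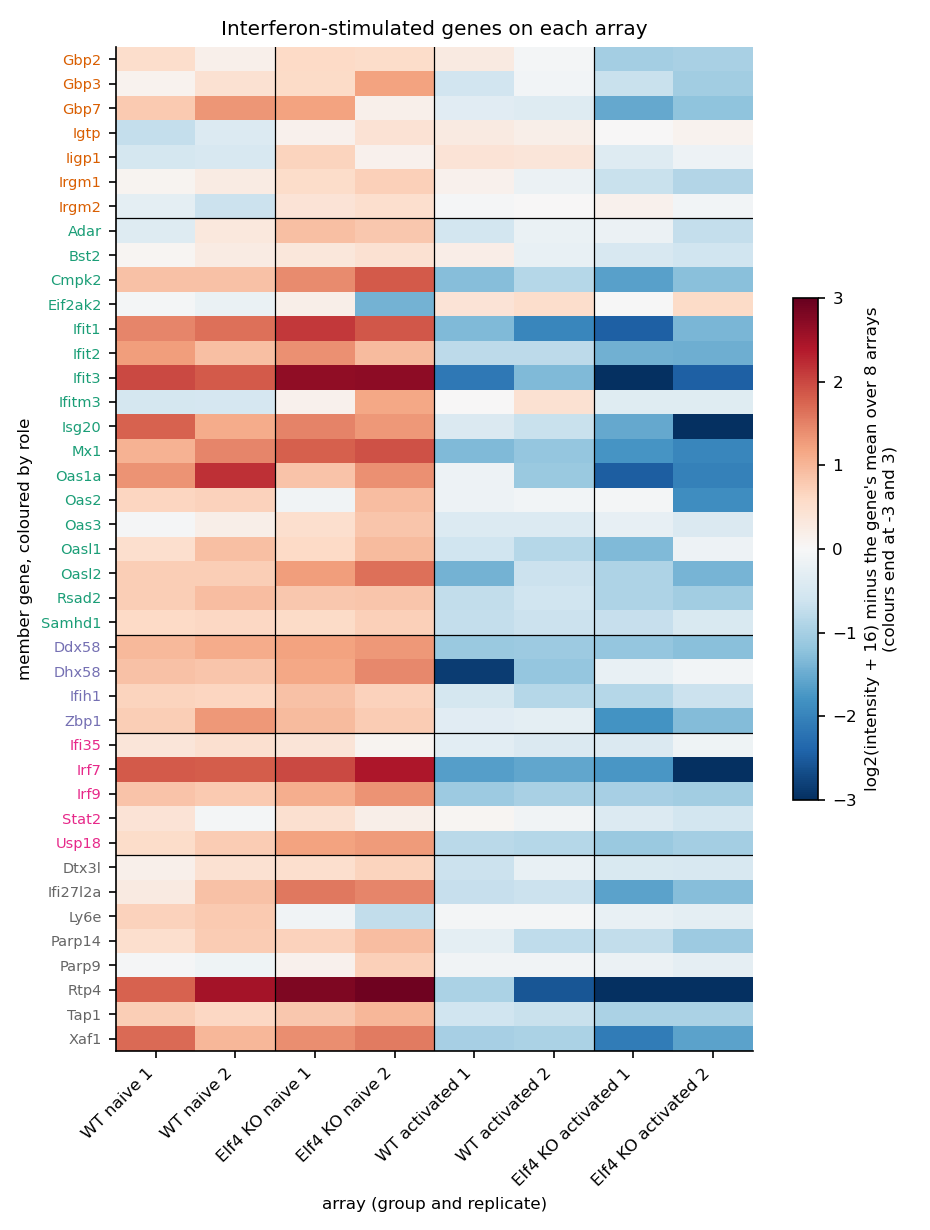
Each row is a member gene tested (n = 41), coloured by role, and each column an array. Colour gives log2(intensity + 16) minus the gene's mean over the 8 arrays, from blue (below) to red (above), with colours ending at -3 and 3. Most members are reddest on the naive knockout arrays and bluest on the activated knockout arrays, while the GTPases at the top change less between states.

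Markers of other cell types moved with genotype in the naive samples. The summed intensity of 9 of 10 granulocyte markers was 505 to 880 on naive wild-type and 4714 to 19600 on naive knockout arrays, and of all 12 macrophage and monocyte markers 3056 to 3521 against 5025 to 8793. For 6 of 8 natural killer cell markers it was 2904 to 4084 against 6350 to 9442, for 10 of 11 B cell markers 28490 to 31300 against 32440 to 47940, and for 8 of 10 CD8+ T cell markers 90830 to 93790 against 76530 to 83890. CD4+ T cell markers (5 of 5) summed to 645 to 697 against 1421 to 1539, dendritic cell markers (8 of 9) to 7933 to 9122 against 5957 to 8531, and erythroid markers (4 of 6) to 407 to 444 against 220 to 235. A sum is weighted toward bright markers, and 2 of these sums did not follow most of their markers. Of 3 CD4+ T cell markers tested, 1 had a log2 change above 0 and 2 below, and Cd4 and Foxp3 were too dim to be tested. Of 6 dendritic cell markers tested, 4 lay above 0 and 2 below, with a median log2 change of 0.46. No value of any probe set was at or under 0, so a marker value above 0 does not show that a cell type was present. Naive knockout replicate 2 held the most granulocyte, macrophage, natural killer and B cell signal. Their part in the naive differences was not tested. Without that array the members' median was 0.26 and the GTPases' 0.39, with 33 of 41 members above 0 and 0 past the threshold.

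In activated cells the members leaned the other way, lower in the knockout. Their median log2 change was −0.39 against −0.01 over all genes, and 35 of 41 lay below 0 (85.4%, against 50.9% of all genes). Gbp2 passed the threshold, so 1 of 41 members was called, against 0.289% of genes (0.164% for those that were lower). At an unadjusted p under 0.05, 15 members were lower, against 5.76% of genes, and 1 was higher, against 6.85%. Knockout arrays lay below both wild-type arrays for 25 members, against 25.7% of genes, and above both for 1, against 25.2%.

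Gbp2, a guanylate-binding GTPase that gathers on microbial vacuoles, read 5191 and 4133 with activated wild-type cells and 2113 and 2187 with activated knockout cells. The groups stood well apart, and the wild type was 2.17-fold higher (means 4662 ± 748 and 2150 ± 52.0, SD, n = 2; log2 −1.10, SE 0.16, adjusted p = 0.0254). Its second probe set, at 2129 and 2296 against 1020 and 969, also passed (log2 −1.14, adjusted p = 0.0254). The call on the brighter probe set was lost when any of the 4 activated arrays was left out. Of the other GTPases Gbp7 (log2 −1.01, adjusted p = 0.25), Irgm1 (−0.75, adjusted p = 0.145) and Iigp1 (−0.66, adjusted p = 0.269) were lower without overlap and without passing. Irgm1 read 1277 and 1034 in the wild type against 732 and 630 in the knockout. Igtp read 12492 and 11636 against 10420 and 11046 (log2 −0.17, 95% interval −0.48 to 0.15). Irgm2, called in naive cells, read 1641 and 1690 against 1835 and 1574 and overlapped (log2 0.03, 95% interval −0.35 to 0.40). The GTPases' median was −0.66.

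The next smallest p-values belonged to a sensor and an effector. Zbp1, which recognises Z-form nucleic acid and can trigger necroptosis, read 313 and 327 with activated wild-type cells and 104 and 152 with activated knockout cells (log2 −1.24, SE 0.27, adjusted p = 0.111). Isg20 read 301 and 250 against 131 and 36.3 (log2 −1.73, SE 0.42, adjusted p = 0.142). Both were lower on each knockout array than on either wild-type array, but neither passed. With the log2 of the Actb 3′ to 5′ ratio as a covariate the log2 change was −0.13 for Isg20 (adjusted p = 0.976) and −1.90 for Zbp1 (adjusted p = 0.549). For Isg20 it was −2.47 without activated knockout replicate 1 and −0.98 without replicate 2. The antiviral effectors had a median of −0.39 with 15 of 17 below 0, the signalling genes −0.24 with 3 of 5, the remaining genes −0.36 with 8 of 8, and the sensors −0.08 with 3 of 4.

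Dhx58, which encodes the RNA sensor LGP2, was the 1 member with both activated knockout arrays above both wild-type arrays. The other 5 members above 0 (Ifi35, Irf9, Irgm2, Oas3 and Samhd1) had log2 changes of 0.01 to 0.11. Dhx58 read 8.24 and 61.7 with activated wild-type cells and 132 and 147 with activated knockout cells (log2 1.84, SE 0.48, adjusted p = 0.174), and at this low intensity the wild-type pair was far apart. Its other probe sets, too dim to be tested, read lower in the knockout, at 51.7 and 57.8 against 47.7 and 10.9, and at 5.90 and 4.66 against 3.08 and 1.13. The sensor of short RNA ends, Ddx58 (RIG-I), was the brightest sensor and read 553 and 571 against 541 and 504 (log2 −0.10, 95% interval −0.45 to 0.25). A dim Ddx58 probe set went the other way without overlap, at 17.1 and 6.12 against 38.2 and 60.8 (log2 1.25, adjusted p = 0.451). Another read 34.9 and 50.7 against 31.1 and 5.95 (log2 −0.86, adjusted p = 0.521). Summed CD4+ T cell markers were 1845 to 1988 on activated wild-type and 3281 to 3648 on activated knockout arrays, macrophage and monocyte markers 603 to 612 against 791 to 850, and B cell markers 4726 to 4876 against 5913 to 7065. Lower in the knockout were the sums of natural killer cell markers (4960 to 5426 against 4091 to 4121), CD8+ T cell markers (23980 to 25900 against 20160 to 21380) and granulocyte markers (358 to 577 against 229 to 357). Their part in these differences was not tested. While most members were lower on the activated knockout than on the activated wild-type arrays, the Actb 3′ to 5′ ratio was higher there. The part of that ratio in these differences was not tested. With the log2 of that ratio as a covariate the members' median in activated cells was −0.28, with 32 of 41 below 0 and 0 called.

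**Figure D2:**
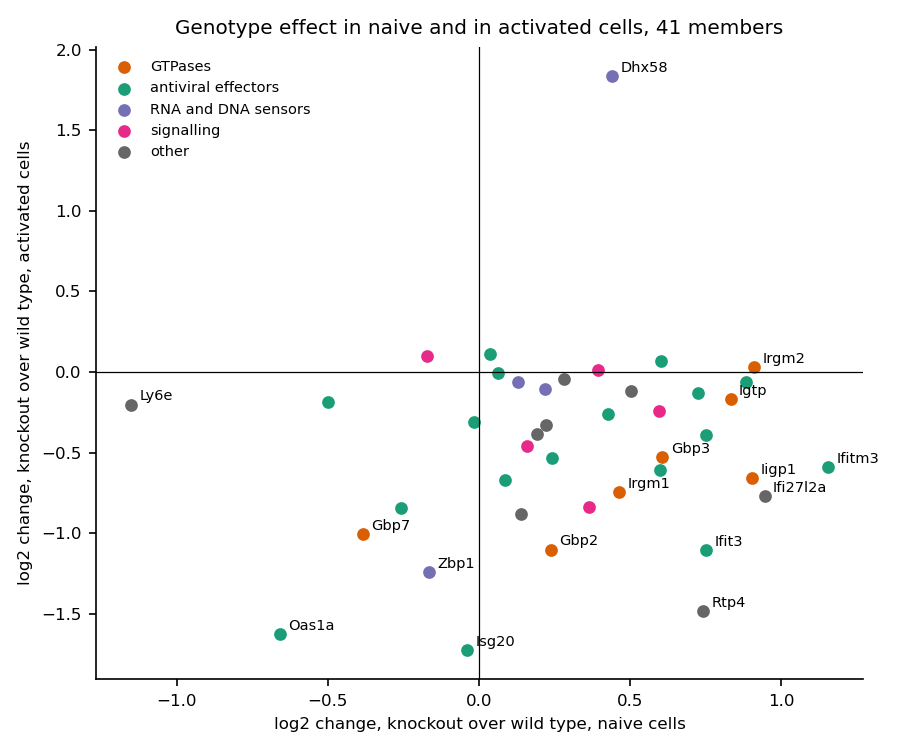
Each point is a member (n = 41), coloured by role. The x axis is the log2 change, knockout over wild type, in naive cells, and the y axis the same in activated cells, with lines at 0. There are 27 members in the lower right part, higher in naive and lower in activated knockout cells (65.9%, against 24.7% of genes), and Dhx58 stands alone at 1.84 on the y axis.

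The genotype effect itself was compared between the states. Its log2 change in activated minus naive cells was below 0 for 36 of 41 members, against 52.8% of all genes, with a median of −0.77 against −0.03. By limma 0 members passed the threshold after adjustment, against 0.0861% of genes, while 22 were lower at an unadjusted p under 0.05, against 5.76% of genes, and 1, Ly6e, was higher, against 5.8%. All 7 GTPases lay below 0, 6 of them with an unadjusted p under 0.05, and their median was −1.14. The antiviral effectors had a median of −0.77 with 15 of 17 below 0, the signalling genes −0.62 with 4 of 5, and the sensors −0.25 with 3 of 4.

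The smallest p-values in this comparison were those of Ifi27l2a (log2 −1.72, SE 0.29, adjusted p = 0.0815), Gbp2 (−1.34, SE 0.23, adjusted p = 0.0837) and Iigp1 (−1.56, SE 0.29, adjusted p = 0.102). Ifi27l2a, higher in naive knockout cells, read 1567 and 1635 with activated wild-type cells and 826 and 1050 with activated knockout cells. Iigp1 read 1278 and 1228 against 725 and 857. In both genes the knockout arrays were above both wild-type arrays in naive cells and below both in activated cells. That arrangement was found in 16 of 41 members (39%), against 4.47% of genes, and the opposite arrangement in 0 members, against 4.19%. The 16 were the GTPases Gbp2, Gbp3, Igtp, Iigp1 and Irgm1, the effectors Bst2, Ifit3, Ifitm3 and Mx1, the sensor Ddx58, the signalling genes Irf7 and Usp18, and Ifi27l2a, Parp9, Rtp4 and Tap1. With each array centred on its median the median of all genes in naive cells moved to 0.12 and that of the members to 0.39.

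**Figure D3:**
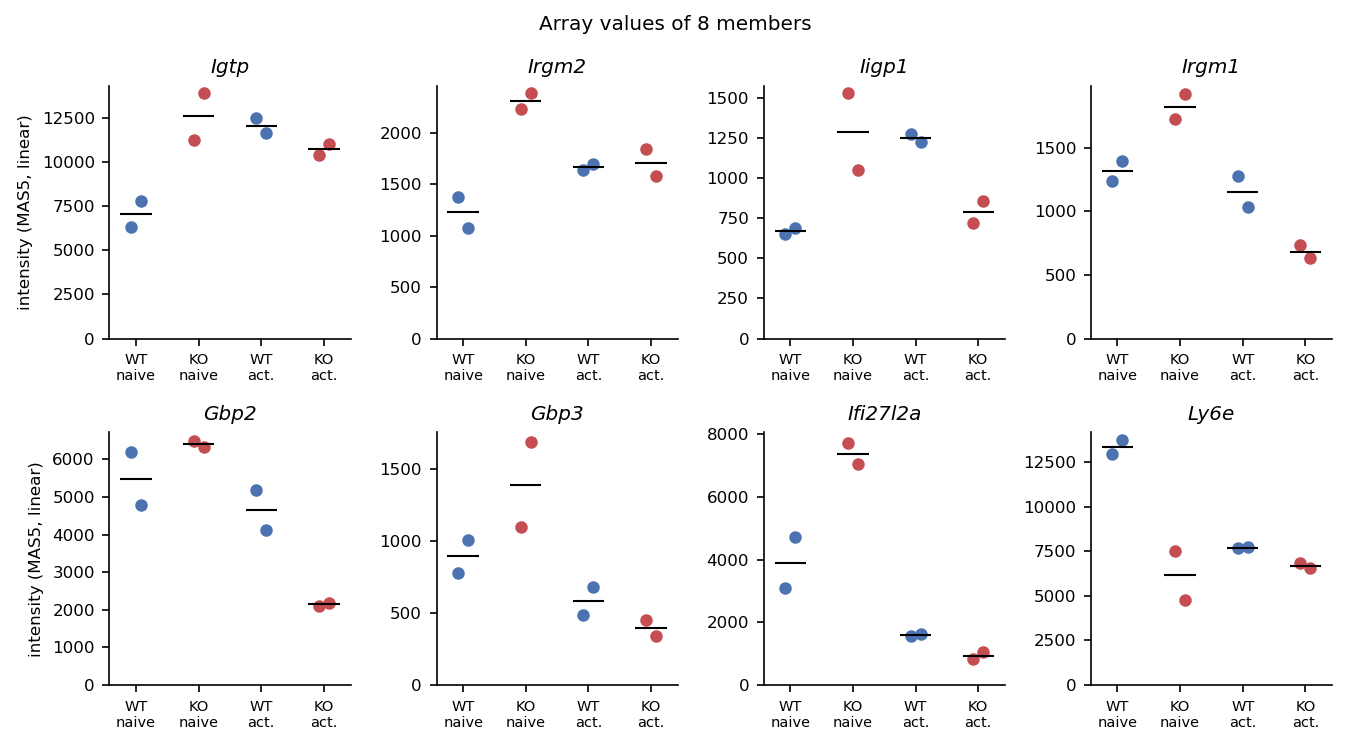
Intensities of 8 members on each array (points; blue, wild type; red, Elf4 knockout), with the group mean as a line and each vertical axis starting at 0. In Igtp, Iigp1, Irgm1, Gbp2, Gbp3 and Ifi27l2a the knockout points lie above the wild-type points in naive and below them in activated cells, in Irgm2 the activated groups overlap, and Ly6e is lower in the knockout in both states.

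Most members were lower after activation in both genotypes. In wild-type cells 29 of 41 passed the threshold, 27 lower and 2 higher, against 45.4% of all genes, of which 24.1% were lower and 21.3% higher. In knockout cells 35 passed, all lower, against 48.1% of genes, of which 26.1% were lower and 21.9% higher. The members' median was −1.31 in wild-type and −1.73 in knockout cells, against −0.12 over all genes in both. There were 26 members lower in both genotypes, out of 27 in wild-type and 35 in knockout cells. These comparisons carry the difference in sex and Actb ratio between naive and activated samples: with the log2 of that ratio as a covariate 1 member was called in wild-type and 0 in knockout cells, with medians of −1.21 and −1.64. On activated arrays marker sums were lower for macrophages and monocytes (603 to 850), B cells (4726 to 7065) and dendritic cells (459 to 665). Those of CD4+ T cells were higher, at 1845 to 1988 against 645 to 697 in the wild type. In the knockout they were 3281 to 3648 against 1421 to 1539. Natural killer cell sums rose in wild-type cells (2904 to 4084 before, 4960 to 5426 after). They fell in the knockout (6350 to 9442 before, 4091 to 4121 after). Of 4 natural killer cell markers tested, 1 had a log2 change above 0 and 3 below in each genotype, so the wild-type sum did not follow most of them. Of 3 CD4+ T cell markers tested, 2 lay above 0 in wild-type and 3 in knockout cells. Of 6 dendritic cell markers tested, 4 lay below 0 in wild-type and 5 in knockout cells. Wild-type granulocyte sums overlapped, at 505 to 880 before and 358 to 577 after, with 0 of 9 markers passing. CD8+ T cell markers went to 20160 to 25900, and granulocyte markers in the knockout to 229 to 357, with 7 of 9 passing as lower. Their part was not tested.

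By role, the median log2 changes in wild-type and knockout cells were −1.74 and −1.97 for the sensors, −1.50 and −1.80 for the antiviral effectors, −1.48 and −2.24 for the signalling genes and −1.20 and −1.80 for the genes of other roles. Rtp4, one of the last, is a zinc-binding protein that restrains some RNA viruses. It went from 2239 and 3691 to 328 and 95.6 in wild-type cells and from 4622 and 5021 to 53.0 and 54.9 in the knockout. It fell in both (log2 −3.88, adjusted p = 3.7e-05, and −6.11, adjusted p = 1.32e-06). Ifit3, one of the antiviral effectors, read 1017 and 918 in naive and 43.0 and 88.5 in activated wild-type cells (log2 −3.65). In the knockout it read 1625 and 1653 in naive and 12.0 and 31.6 in activated cells (log2 −5.50). Every activated array lay below every naive array in both genes. The activated knockout values of both, and those below the activated array medians of 64.1 to 71.9 in the next genes, are too dim to fix the size of a fall, so no fold is given and these log2 changes hold for log2(intensity + 16) alone.

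Irf7, the transcription factor that amplifies type I interferon production, went from 1589 and 1566 to 128 and 137 in wild-type and from 1743 and 2376 to 117 and 35.8 in knockout cells (log2 −3.42 and −4.63). Ifit1 went from 871 and 988 to 111 and 65.9 in wild-type and from 1374 and 1142 to 42.4 and 108 in knockout cells (log2 −3.21 and −3.90). Mx1, a dynamin-like protein that blocks influenza virus and is known to be defective in C57BL/6 mice, went from 325 and 439 to 49.6 and 57.7 in wild-type and from 560 and 601 to 32.6 and 26.8 in knockout cells (log2 −2.50 and −3.71). Dhx58, at 303 and 292 in naive wild-type cells, fell there (log2 −2.85) and, from 370 and 454, also in the knockout (log2 −1.46). All 4 sensors fell in both genotypes, and so did 4 of 5 signalling genes and 11 of 17 antiviral effectors in wild-type and 15 of 17 in knockout cells. The shares of all genes that fell were 24.1% in wild-type and 26.1% in knockout cells. Samhd1 read 3644 and 3787 with activated wild-type cells and 3712 and 4337 with activated knockout cells (log2 −1.28 and −1.21). Ddx58 fell too (log2 −2.14 and −2.47, wild type and knockout).

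**Figure D4:**
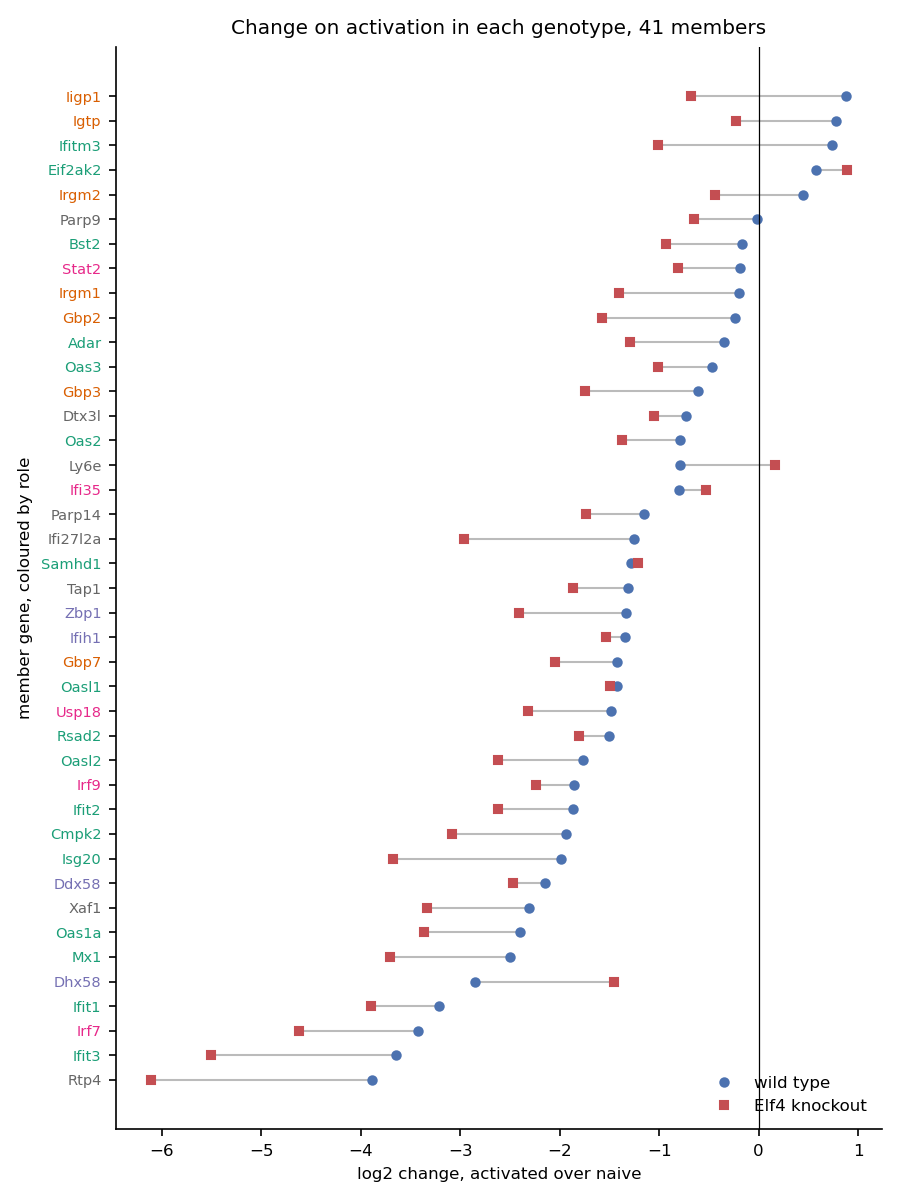
For each member (n = 41, coloured by role and ordered by the wild-type value) the x axis gives the log2 change of activated over naive cells in wild-type (blue circles) and Elf4 knockout cells (red squares). On this scale Rtp4 is lowest at −3.88 and −6.11, and most GTPases sit in the upper part, with Iigp1 and Igtp at 0.88 and 0.78 in wild-type cells.

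Of the GTPases, 2 rose, 1 fell and 4 did not pass on activation of wild-type cells. With 7 genes, these counts lie near the shares of all genes, 21.3% higher and 24.1% lower. The GTPases' median log2 change was −0.19, against −1.39 for the 34 other members. The sign of the GTPase median depended on the setting, from −0.34 to 0.10. Igtp and Iigp1 were the members that rose in wild-type cells, by 1.71-fold (log2 0.78, SE 0.14, adjusted p = 0.00132) and 1.87-fold (log2 0.88, SE 0.21, adjusted p = 0.00594). Of the other 5, Gbp7 fell (log2 −1.42, adjusted p = 0.00347), while Irgm2 (0.44, adjusted p = 0.0596), Irgm1 (−0.19), Gbp2 (−0.23) and Gbp3 (−0.61, adjusted p = 0.0985) did not pass. The second Gbp2 probe set fell (−0.61, adjusted p = 0.0134) and the second Gbp7 probe set did not pass (−0.13, adjusted p = 0.681).

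In knockout cells 5 of the 7 GTPases fell, against 26.1% of genes: Gbp7 (log2 −2.05), Gbp3 (−1.75), Gbp2 (−1.57), Irgm1 (−1.40) and Iigp1 (−0.68, adjusted p = 0.0225). Igtp (−0.22, adjusted p = 0.238) and Irgm2 (−0.44, adjusted p = 0.06) did not pass, and the second Iigp1 probe set did not pass either (−0.32, adjusted p = 0.317). The GTPase median was −1.40, against −1.83 for the other members. The members that passed as lower in knockout but not in wild-type cells were Gbp2, Gbp3, Irgm1, Iigp1, Adar, Bst2, Ifitm3, Oas3 and Parp9, and Ly6e was lower in wild-type cells alone. The difference between genotypes passed for none of them after adjustment, by the comparison of the genotype effect between states, which uses the same arrays.

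The group means had the same highest and lowest group in most members. Naive knockout cells had the highest of the 4 means in 32 of 41 members, against 27.7% of genes, and activated knockout cells the lowest in 29, against 31.5%. The full order of naive knockout, naive wild type, activated wild type and activated knockout was found in 23 members, against 12.1% of genes. These were 3 GTPases, 8 antiviral effectors, 2 sensors, 3 signalling genes and 7 others. Neighbouring groups in this order did not always separate. In these 23 members the arrays of both naive groups overlapped in 4 (17.4%, against 62.4% of all genes with this order), those of naive and activated wild type in 6 (26.1%, against 28.5%) and those of both activated groups in 7 (30.4%, against 54.5%).

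**Figure D5:**
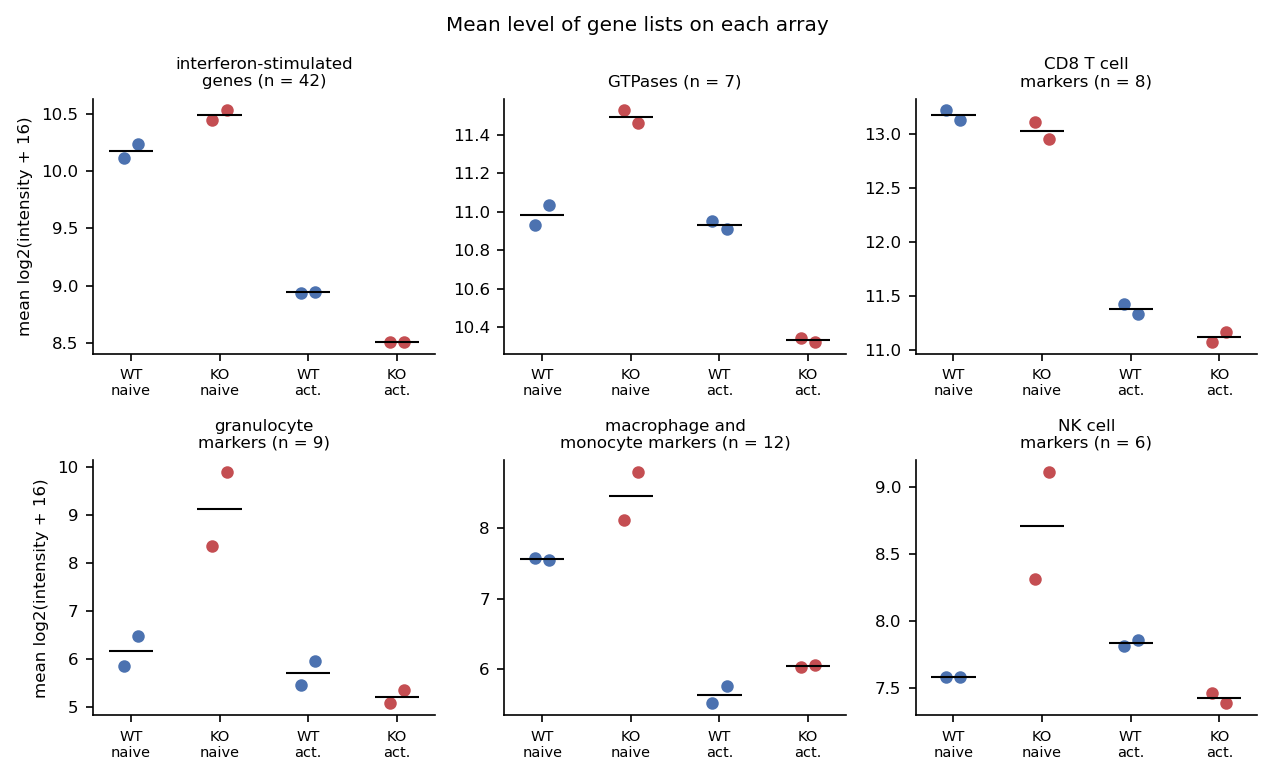
Points are arrays (blue, wild type; red, Elf4 knockout) and lines are group means of the mean log2(intensity + 16) over the genes of a list, with axes that do not start at 0. The members lie at 10.1 and 10.2 (wild type) and 10.4 and 10.5 (knockout) before activation, and at 8.94 and 8.95 (wild type) and 8.51 on both knockout arrays after it, and granulocyte markers are highest in naive knockout replicate 2.

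Members were also set side by side by their promoter letters. In naive cells the median log2 change was 0.24 for the 17 tested members with ISRE letters and 0.22 for the 13 without, in activated cells −0.46 and −0.13, and for the difference between the states −0.77 and −0.76. On activation of wild-type cells the medians were −0.47 with the letters and −1.77 without, and all 13 members without them were below 0. The 17 with the letters include all 6 GTPases that had a window. In that comparison the median of all 7 GTPases was −0.19, against −1.39 for the other members, so letters and role are not separate here. Igtp and Irgm2, with nearly the same promoter stretch, had naive log2 changes of 0.83 and 0.91. In activated cells their genotype changes were −0.17 and 0.03. On activation they changed by 0.78 and 0.44 in wild-type and by −0.22 and −0.44 in knockout cells. These are descriptions of letters, and 12 of the members had no window, Rtp4, Mx1 and Iigp1 among them.

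Probe sets of the same member did not always give the same picture. The brightest Ifi35 probe set, whose identifier marks possible cross-hybridisation, went from 21245 and 22915 to 13245 and 12172 on activation of wild-type cells, and from 21776 and 17604 to 12141 and 15213 in the knockout. It fell in both (log2 −0.80 and −0.53), as did a dimmer probe set (−1.23 and −1.72), while another had log2 changes of 0.29 and 0.11 that did not pass. For Adar, which edits double-stranded RNA, the brightest probe set had a naive log2 change of 0.88 (adjusted p = 0.202), the next 0.09 (adjusted p = 0.931) and the dimmest 1.04 (adjusted p = 0.324). Another Samhd1 probe set gave 2943 and 5062 for naive wild-type cells against 6072 and 8160 for the knockout, without overlap (log2 0.86, adjusted p = 0.218), while a further one had replicates as far apart as 895 and 33785. Eif2ak2, the RNA-dependent kinase PKR, was dim in all of its 3 probe sets, at 7.83 to 184, and none passed in any comparison. Stat2, at 54.1 to 170 over its 2 probe sets, did not pass either. Oas2, at 22.3 to 249, did not pass in wild-type (log2 −0.79, adjusted p = 0.301) or knockout cells (−1.38, adjusted p = 0.0711).

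Of the interferon genes themselves, 9 of 13 had a probe set and Ifng was the bright exception. Ifng, which encodes interferon gamma, went from 1017 and 2382 to 38417 and 32820 in wild-type cells and from 657 and 550 to 38935 and 45856 in the knockout. It rose 21.0-fold in wild-type (log2 4.50, adjusted p = 1e-06) and 70.3-fold in knockout cells (log2 6.10, adjusted p = 1.35e-07), and its lower naive knockout level did not pass (log2 −1.35, adjusted p = 0.0981). Ifnz, a type I interferon gene, read 471 and 406 in naive and 5.56 and 113 in activated wild-type cells and fell there (log2 −3.10, adjusted p = 0.00436). The other 7, all type I genes, read 2.37 to 184 on any array.

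Of the receptor, Jak and Stat list 13 of 14 genes were tested. On activation 9 fell and 0 rose in wild-type cells, against 24.1% and 21.3% of all genes. In knockout cells 8 fell and 0 rose, against 26.1% and 21.9%. Ifnar1 (log2 −0.84 in the wild type, −0.93 in the knockout) and Ifnar2 (−1.57 and −1.27), the chains of the type I interferon receptor, fell in both genotypes. Ifngr1 (−2.18 and −2.97), the ligand-binding chain of the interferon gamma receptor, and Jak1 (−2.34 and −2.53), a kinase that serves both receptors, fell too. Ifngr2 did not pass (−0.46 and −0.05), at 163 to 310 on all arrays. In the knockout the largest falls were those of Ifngr1, Jak1, Pias1 (−1.88), an inhibitor of Stat signalling, and Ifnar2.

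Socs3, a feedback inhibitor of cytokine receptors, was the 1 gene of this list to differ by genotype. Naive arrays gave 9221 and 7920 for the wild type against 5338 and 5170 for the knockout, and activated arrays 1194 and 1587 against 3049 and 2973. It was thus lower in naive and higher in activated knockout cells, without overlap. The activated difference passed (log2 1.12, adjusted p = 0.0245), the naive one did not (−0.70, adjusted p = 0.101), and the difference between the states passed (1.82, adjusted p = 0.0225).

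Interferon regulatory factors split on activation, with 2 of 7 higher in both genotypes and 4 lower in wild-type and 3 in knockout cells. The shares of all genes were 21.3% higher and 24.1% lower in wild-type cells, and 21.9% and 26.1% in knockout cells. Irf4, a factor induced by T cell receptor signals, rose from 165 and 331 to 7153 and 7268 in wild-type and from 210 and 345 to 7933 and 7426 in knockout cells (log2 4.85 and 4.75). Irf8 rose too (log2 3.07 and 2.02). Irf1, an activator of many interferon-stimulated genes, went from 12532 and 14831 to 2825 and 2806 in wild-type cells and from 12668 and 11405 to 1971 and 1952 in the knockout. It fell in both (log2 −2.27 and −2.61), and its activated genotype difference did not pass (−0.52, adjusted p = 0.159). Irf2 (−2.46 and −2.44) and Irf3 (−1.22 and −1.66) fell as well. Irf2bp2, a co-repressor that binds Irf2, read 3469 and 2953 in naive wild-type and 1548 and 1521 in naive knockout cells and was the gene of this list to fall by genotype (log2 −1.05, adjusted p = 0.0198).

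Among 13 of 14 genes that lead to interferon production, 0 passed by genotype in naive cells by limma, with 1 at an unadjusted p under 0.05, and 0 in activated cells, with 0. On activation 2 rose and 3 fell in wild-type cells and 3 rose and 5 fell in knockout cells. For wild-type cells these counts lie near the shares of all genes, 21.3% higher and 24.1% lower (in knockout cells 21.9% and 26.1%). The kinase gene Ikbke had the largest fall (log2 −3.40 and −3.78) and Trim56 the next (−1.88 and −2.20). Rnf135, a partner of Ddx58, fell (−1.28 and −1.35), and Tlr7 fell in knockout cells (−2.67). Mavs, the adaptor of the RNA sensors, rose (0.85 and 0.94), as did Tbk1 (0.72 and 0.65), and Cgas rose in knockout cells (0.55, adjusted p = 0.0358).

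Of the MHC class I presentation genes 11 of 12 were tested, and 0 passed by genotype in either state by limma, with 2 in naive and 1 in activated cells at an unadjusted p under 0.05. Their median was −0.19 in naive and −0.13 in activated cells. On activation 10 fell in wild-type cells, against 24.1% of genes, and 8 in knockout cells, against 26.1%. In neither genotype did any rise, against 21.3% and 21.9% of genes. Psmb10, an immunoproteasome subunit, fell furthest (−2.18 and −2.17), and Tapbp (−1.76 and −1.70), Psmb8 (−1.30 and −1.23), Tap2 (−1.05 and −1.27) and Psmb9 (−0.97 and −1.34) fell in both. Nlrc5, which switches on class I genes, fell from 4824 and 4404 to 2451 and 2154 in wild-type cells and from 5334 and 6111 to 1656 and 1687 in the knockout. Tap1, the member of the interferon-stimulated list that moves peptides with Tap2, went from 5734 and 5265 to 2246 and 2156 in wild-type cells and from 6016 and 6828 to 1747 and 1749 in the knockout (log2 −1.31 and −1.87).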

How the data were processed

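Spleen CD8+ T cell RNA was measured on 8 Affymetrix expression arrays. The deposited values are MAS5 signal intensities on a linear scale, per the submitters' processing notes, with the MAS5 version not given in the sources used here. Every array has a 2% trimmed mean of 500, so each was scaled to one level before deposit. That removes any change shared by all genes. With 2 arrays a group, precision is limited by their number. No pair of arrays was identical.

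Values were taken as log2(intensity + 16), and probe sets at or above the array median on at least 2 of 8 arrays were kept, without the 64 control probe sets. This left 27348. A model of 4 group means was fitted over all arrays with limma 3.58.1 in R 4.3.3 (eBayes with a trend), and each of 5 contrasts was tested two-sided with Benjamini-Hochberg adjustment over these probe sets at 0.05. Fold changes on this scale are understated for dim genes. The fit was also tested on simulated data.

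Platform symbols of 34958 probe sets with 1 symbol were updated through Entrez identifiers to RefSeq GRCm38.p6 names (34754 matched, 204 kept), while 932 had several symbols and 9211 none. Promoter windows came from the same RefSeq build. Figures were drawn with matplotlib 3.10.9.

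The members, the lists of interferon pathway, MHC class I and cell type marker genes, and the tests were chosen with earlier results of these data known. Array values are given for members past the threshold by genotype, for the 3 smallest p-values in each genotype comparison, for the 5 largest rises and falls on activation that passed, and for the brightest member of each role. Genes of the pathway and class I lists are named where they passed by genotype or had the 4 largest changes in a direction on activation, besides a fixed set of ligand, receptor and factor genes. Alternatives changed the offset, scaling, filter, variance prior, weights, covariates, probe set choice, threshold and arrays used.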

Additional observations from a re-analysis of the deposited data

Results flagged for a closer look

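Several results moved in opposite directions by genotype in the naive and activated states. Socs3, the feedback inhibitor of cytokine receptors, had a log2 difference of 1.82 between the states (limma adjusted p = 0.0225), with both knockout arrays below both wild-type arrays in naive cells and above both in activated cells.

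The mean log2 level of the interferon-stimulated genes moved the other way, with every knockout array above every wild-type array in naive cells and below in activated cells. The genotype difference in activated minus naive cells was −0.745 for the 41 members together, from 0.299 in naive to −0.446 in activated cells. By role it was −1.11 for the GTPases, −0.808 for the antiviral effectors, −0.554 for the signalling genes and −0.761 for the genes of other roles. For these means the difference was not tested. The mean of the 4 sensors did not have this pattern, with 0.156 in naive and 0.109 in activated cells. That activated mean includes Dhx58 at a log2 change of 1.84, with a dim wild-type pair at 8.24 and 61.7. The sensors' activated median was −0.08, with 3 of 4 below 0. Chance flags about 1 in 20 groups of samples for an array that stands apart, but groups of 2 are too small for that check.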

How the results depend on the processing

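Directions were kept where calls were often lost, but not every alternative fit could move a direction. Changing only the variance prior or the array weights left the estimates unchanged, as did leaving out arrays outside a comparison. The replicate block left the genotype estimates unchanged. Only the remaining fits bear on the directions. The median log2 change of the members kept its sign in all 22 alternative fits for naive cells (0.24 to 0.39), activated cells (−0.40 to −0.28), activation of wild-type cells (−1.35 to −1.12) and activation of knockout cells (−1.86 to −1.57), and in all 21 for the difference between the states (−0.90 to −0.55). Igtp, Irgm2 and Ly6e kept their direction in naive cells and passed in 10, 7 and 11 of 22 fits, and Gbp2 did so in activated cells in 14 of 22.

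The 3 calls in naive cells became 1 with no filter, 1 with array weights, 1 when a log2 change of at least 1 was also asked for, and 0 without the variance trend, with the Actb ratio as a covariate and with only the 4 naive arrays. Leaving out 1 array at a time gave 0 to 2. The 1 call in activated cells became 5 with array weights and with only the 4 activated arrays, 2 with the mean of a gene's probe sets, and 0 with median-centred arrays, without the trend and with the Actb ratio. Leaving out 1 array gave 0 to 1. On activation, the Actb ratio as a covariate took the 29 calls in wild-type cells to 1 and the 35 in knockout cells to 0, and leaving out 1 array gave 28 to 30 and 30 to 36. The 0 calls for the difference between the states became 1 with median-centred arrays, 1 with array weights and 3 with the mean of a gene's probe sets, and 0 to 1 with 1 array left out (1 without either naive wild-type array or without naive knockout replicate 1). A group left with 1 array is assumed to vary like the others. The causes were not tested, apart from the fewer arrays used.

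With the replicate number as a block within each state, 0 members were called by genotype in naive cells, 0 in activated cells and 0 for the difference, with 27 and 28 on activation of wild-type and knockout cells. The deviations of same-numbered arrays correlated at −0.167 to 0.069 between groups, so the numbers were not taken as pairs. Crossing the numbers of the naive arrays, chosen after seeing these correlations, gave 3 calls in naive cells. Dim members such as Mx2, Eif2ak2 and Stat2 lie near the array medians, where a difference would be hard to see.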
